A study of Mus musculus with 8 samples.

Results

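The 10 genes described here, Fos, Fosb, Jun, Junb, Jund, Egr1, Klf4, Klf6, Ier2 and Ier3, are transcription factors and small regulators of the immediate early response. They were taken by symbol, through the GRCm38 gene annotation, from the 52636 genes counted in the livers of 8 mice. All mice were wild-type C57BL/6J males that received an adeno-associated virus (AAV8) at 7 weeks of age and were fed a steatohepatitis diet rich in fat, fructose and cholesterol (MASH diet) from 8 weeks of age for 24 weeks. In 4 mice the virus was AAV8-TBG-AGXT (AAV8-AGXT), which carries human AGXT, the alanine-glyoxylate aminotransferase that removes glyoxylate before it becomes oxalate, under the hepatocyte-specific TBG promoter. In the other 4 it was AAV8-TBG-GFP (AAV8-GFP), so the controls shared the virus, the promoter and the diet. The comparison asks which liver transcripts differed when AGXT was overexpressed during the diet. No chow-fed or uninjected mice were in these data, so the levels cannot be set against a liver without steatohepatitis.

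Immediate early genes are transcribed within minutes of a stimulus such as a growth factor, a stress kinase or tissue handling, from factors already present in the cell, and their short-lived mRNAs then disappear. Proteins of the Fos and Jun families pair through leucine zippers to form AP-1, EGR1 is a zinc-finger factor with its own GC-rich site, and KLF4 and KLF6 belong to the Kruppel-like zinc-finger family. In the liver these genes are known for their rise at the start of regeneration, in inflammation and in the activation of stellate cells.

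One library was made per mouse, and 17095433 (AAV8-AGXT mouse 309) to 28780140 (AAV8-GFP mouse 311) read pairs were counted on genes. These made up 56.3% of the tallied pairs in AAV8-AGXT mouse 308 and 62.4% to 69.1% in the other mice. The human AGXT transcript had no row of its own in the tables, so the labels were not checked against the transgene. Levels are given as CPM, the share of a library's counts that a gene took, scaled by the trimmed mean of M values (TMM), always for AAV8-GFP mice 303, 311, 314 and 315 and then AAV8-AGXT mice 308, 309, 316 and 319. Mouse 309 stood apart from its group in these genes. Its level was more than 2 times the median of the other 3 AAV8-AGXT mice for 7 of the 10 genes, against 4.51% of the 15248 genes tested. Each fold change is therefore given with all 8 mice and again without mouse 309, a choice made after its values were seen.

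The sequences before the start sites of 4 genes are shown because 2 of them, Fos and Junb, were far higher in mouse 309 than in its group and the others, Klf6 and Ier3, were the members called lower without it. They are the 250 bases ahead of the RefSeq start on GRCm38.p6, each read on the strand of its gene, at chr12:85473640-85473889 (plus strand) for Fos (ENSMUSG00000021250), chr8:84978749-84978998 (minus) for Junb (ENSMUSG00000052837), chr13:5861239-5861488 (plus) for Klf6 (ENSMUSG00000000078) and chr17:35821463-35821712 (plus) for Ier3 (ENSMUSG00000003541). Capitals mark the TATA box TATAAA, the Sp1 GC box GGGCGG on either strand and TGACG, the core of the cAMP response element, on either strand.
Fos: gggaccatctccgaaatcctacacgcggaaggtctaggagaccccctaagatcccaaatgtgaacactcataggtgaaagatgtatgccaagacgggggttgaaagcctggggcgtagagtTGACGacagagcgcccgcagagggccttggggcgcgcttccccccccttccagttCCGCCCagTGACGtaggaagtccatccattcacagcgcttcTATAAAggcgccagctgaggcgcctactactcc
Junb: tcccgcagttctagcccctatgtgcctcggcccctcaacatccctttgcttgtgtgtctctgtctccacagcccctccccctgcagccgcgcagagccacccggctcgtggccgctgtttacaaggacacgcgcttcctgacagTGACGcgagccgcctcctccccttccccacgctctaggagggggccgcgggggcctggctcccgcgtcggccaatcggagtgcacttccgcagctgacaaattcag
Klf6: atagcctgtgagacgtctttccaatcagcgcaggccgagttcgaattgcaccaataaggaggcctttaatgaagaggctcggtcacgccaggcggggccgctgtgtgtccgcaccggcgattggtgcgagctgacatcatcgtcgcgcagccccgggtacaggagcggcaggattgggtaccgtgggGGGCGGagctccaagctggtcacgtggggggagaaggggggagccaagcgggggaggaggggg
Ier3: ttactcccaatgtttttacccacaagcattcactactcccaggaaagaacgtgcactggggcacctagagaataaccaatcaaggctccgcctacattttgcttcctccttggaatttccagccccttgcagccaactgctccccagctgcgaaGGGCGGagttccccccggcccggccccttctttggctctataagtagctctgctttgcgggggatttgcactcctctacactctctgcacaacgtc

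Counting back from the start, with base 1 the last base of the window, Fos held a TATA box at bases 33 to 28, a GC box at 74 to 69 and the TGACG core at 129 to 125 and at 66 to 62. Junb held the core at 106 to 102 and no GC box, Klf6 a GC box at 63 to 58 and Ier3 a GC box at 96 to 91. The tables used here had such a window for 8 of the 10 genes, all but Egr1 and Ier2. The window of Jund ends at base 70697738 of chromosome 8, well ahead of the start at 70698949 in the annotation used for the counts, and is included in the shares that follow. A GC box was in 6 of these 8 windows (Fos, Fosb, Jun, Klf4, Klf6 and Ier3), against 32.742% of all 32851 mouse windows of this length. The core was in 4 of the 8 (Fos, Fosb, Junb and Klf4), against 17.765%, and was searched for after the sequences had been seen. TATAAA was in 1 of the 8, that of Fos, against 12.368%. The full cAMP response element TGACGTCA, the AP-1 site TGACTCA, the EGR site GCGTGGGCG and the serum response element were in none of the 8 windows, against 1.546%, 4.463%, 0.536% and 1.467% of all windows. A match is a run of letters in these windows, and longer regions were not searched.

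The levels of the genes were compared with each other as CPM per kilobase of exon. In AAV8-GFP livers the median was highest for Jund (83.4), followed by Jun (66.4), Junb (57.9), Ier2 (54.7) and Egr1 (32.0), and each of these overlapped its neighbour over the 4 mice. Klf6 (14.4), Fos (13.1) and Ier3 (8.51) came next and lay below Egr1 in every AAV8-GFP mouse. Fos overlapped both Klf6 and Ier3, whereas Klf6 and Ier3 did not overlap each other. Klf4 (1.22) and Fosb (1.09) were lowest. In AAV8-AGXT livers the medians ran from Junb (59.6), Ier2 (57.6), Jun (55.5) and Jund (53.5) over Egr1 (23.8) to Fos (6.38), Klf6 (6.18), Ier3 (3.37), Klf4 (1.05) and Fosb (0.298). There, neighbours from Junb down to Ier3 overlapped, and Ier3, Klf4 and Fosb were apart from each other.

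**Figure D1:**
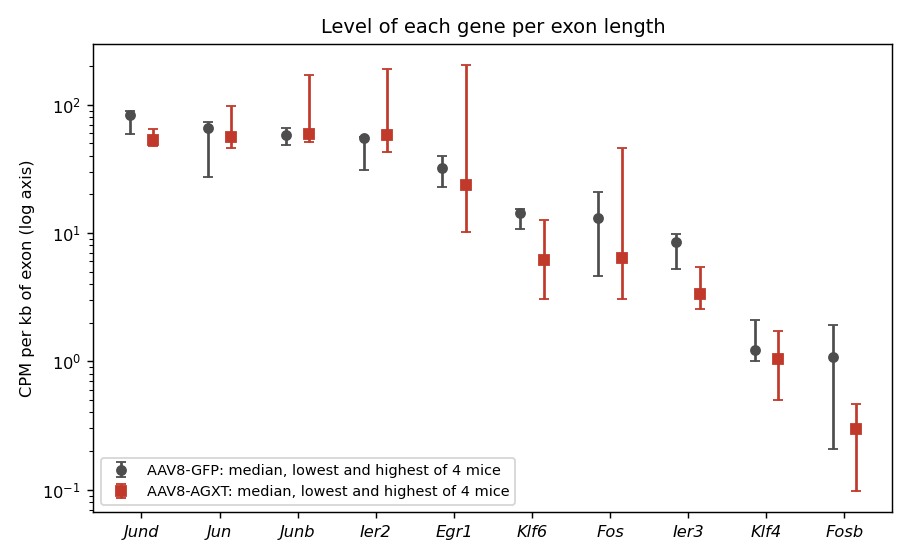
Level of each of the 10 genes as CPM per kilobase of exon on a log axis, with AAV8-GFP in grey and AAV8-AGXT in red. Points are medians and bars run from the lowest to the highest of 4 mice. The upper AAV8-AGXT bars of Junb, Ier2, Egr1 and Fos, which end at 171, 190.0, 203 and 45.8, are mouse 309.

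With all 8 mice, none of the 10 genes was called between AAV8-AGXT and AAV8-GFP (edgeR quasi-likelihood test, adjusted p under 0.05), where 4.35% of the 15248 genes tested were called, 2.45% higher and 1.9% lower. All 10 passed the filter on low counts. Of them, 4 had an unadjusted p under 0.05, all lower in AAV8-AGXT (Fosb, Jund, Klf6 and Ier3), against 12.6% of all genes lower at that level. DESeq2 called 3, all lower (Jund, Klf6 and Ier3), against 6.38% of its 16204 genes, and limma-voom called 0, against 4.47%. The groups overlapped for all 10, whereas they did not overlap for 16.6% of the genes tested. Fold changes were positive for 5 and negative for 5 (Fos turned negative with limma-voom, and Jun with library totals as the only scaling), with a median log2 fold change of -0.13 beside 0.018 over all genes. Without mouse 309 the log2 fold change was negative for 9 of the 10, with a median of -0.61 beside -0.0063 over all genes, and 5 were lower at an unadjusted p under 0.05 (Fos, Fosb, Jund, Klf6 and Ier3), against 13.7% of genes. Klf6 and Ier3 were then called lower, against 1.67% of 15796 genes called lower, and were the members whose groups did not overlap, against 11.1% of genes lower in this way. Mouse 309 was left out for its high values in these same genes, so leaving it out lowers most of their fold changes by construction. The shares over all genes carry no such choice and are not a matched background for the values without mouse 309. In bulk liver, fewer cells of a type and less RNA per cell cannot be told apart, and this holds for every value here.

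**Figure D2:**
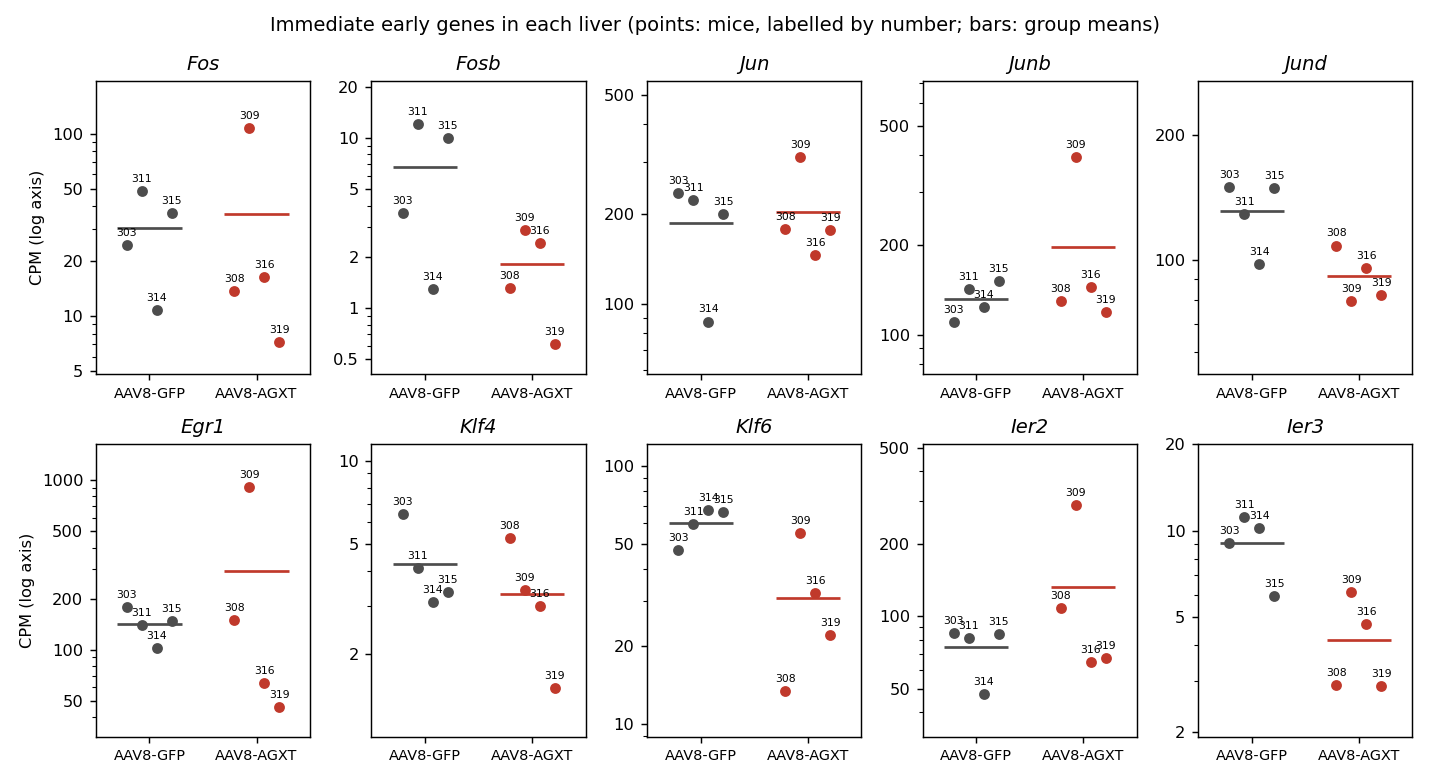
Each of the 10 genes in each liver, as TMM-scaled CPM on a log axis with its own range per gene. Points are mice labelled by number, and bars are means of 4. Mouse 309 is the highest of all 8 mice for Fos, Jun, Junb, Egr1 and Ier2, and the AAV8-AGXT points of Klf6 and Ier3 lie mostly below the AAV8-GFP points.

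Fos, the classical immediate early partner of Jun proteins in AP-1, was at 24.6, 48.7, 10.8 and 36.9 CPM in AAV8-GFP mice and at 13.7, 108, 16.3 and 7.22 CPM in AAV8-AGXT mice. Mouse 309 was the highest of all 8, and the other 3 AAV8-AGXT mice lay within or below the AAV8-GFP range. The group means were 30.3 ± 16.3 and 36.2 ± 47.8 CPM (SD, n = 4 each). The log2 fold change was 0.26 (SE 0.77, edgeR adjusted p = 0.865) with all mice and -1.31 (SE 0.47, edgeR adjusted p = 0.124) without mouse 309, so that 1 mouse turned its direction and neither value was called. Fosb, a second Fos family partner, was at 3.63, 12.0, 1.29 and 9.92 CPM in AAV8-GFP mice and at 1.31, 2.88, 2.41 and 0.613 CPM in AAV8-AGXT mice. Here AAV8-GFP mice 311 and 315 were high, mouse 314 was as low as the AAV8-AGXT mice, and mouse 309, the highest of its group, was below the other 3 AAV8-GFP mice. For Fosb the log2 fold change was -1.90 (SE 0.67, edgeR adjusted p = 0.111), and -2.24 (SE 0.77, edgeR adjusted p = 0.11) without mouse 309.

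Among the Jun genes, Jun itself, the AP-1 subunit activated by JNK kinases, was at 235, 223, 87.4 and 200.2 CPM in AAV8-GFP mice and at 178, 310.0, 146 and 176 CPM in AAV8-AGXT mice. The lowest value was AAV8-GFP mouse 314 and the highest was mouse 309, and the other 3 AAV8-AGXT mice lay below the other 3 AAV8-GFP mice (log2 fold change 0.12, SE 0.32, edgeR adjusted p = 0.844, and -0.18, SE 0.30, without mouse 309). Junb, which can restrain Jun at some promoters, was at 111, 142, 124 and 151 CPM in AAV8-GFP mice and at 129, 393, 145 and 119 CPM in AAV8-AGXT mice. Apart from mouse 309, the AAV8-AGXT values lay inside the AAV8-GFP range. The log2 fold change of Junb went from 0.57 (SE 0.35, edgeR adjusted p = 0.330) to -0.028 (SE 0.13, edgeR adjusted p = 0.912) without mouse 309.

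Jund, the Jun gene that is expressed constitutively in most tissues, was at 150.0, 129, 97.8 and 149 CPM in AAV8-GFP mice and at 108, 79.7, 96.0 and 82.5 CPM in AAV8-AGXT mice. The AAV8-AGXT mice were the lower group, and only AAV8-GFP mouse 314 lay among them. The means were 131 ± 24.4 and 91.7 ± 13.2 CPM (SD, n = 4 each), and the log2 fold change was -0.52 (SE 0.16, edgeR adjusted p = 0.0825). It was -0.48 (SE 0.17, edgeR adjusted p = 0.115) without mouse 309, which was the lowest of its group for this gene. DESeq2 called Jund lower (adjusted p = 0.0218). Each of the Jun genes shares exon bases with a gene on the other strand, Jun with Junos, Junb with Prdx2 and Jund with Gm11175. Whether the counting used strand is not given in the sources used here, so these counts are uncertain to that extent. Prdx2 averaged 134 ± 2.13 CPM in the controls and 125 ± 7.92 CPM with AAV8-AGXT (SD, n = 4 each), and mouse 309 had 114 CPM, Junos was below 2 CPM in every mouse, and Gm11175 was at 0 in all 8.

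Egr1, which encodes a zinc-finger factor induced through the ERK and serum response factor route, showed the widest spread among mice. It was at 178, 139, 102 and 148 CPM in AAV8-GFP mice and at 149.9, 909.7, 63.6 and 45.9 CPM in AAV8-AGXT mice. Mouse 309 had 14.3 times the median of the other 3 AAV8-AGXT mice, and 5 of the 15248 genes tested had a larger ratio in this mouse. The other 3 were split, with mouse 308 at the level of the AAV8-GFP mice and mice 316 and 319 below all of them. Its log2 fold change was 1.05 (SE 0.80, edgeR adjusted p = 0.438), and -0.74 (SE 0.37, edgeR adjusted p = 0.233) without mouse 309.

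Klf6, a Kruppel-like factor induced by injury in hepatocytes and in stellate cells, was at 47.1, 59.8, 67.7 and 66.5 CPM in AAV8-GFP mice and at 13.4, 55.2, 32.2 and 22.1 CPM in AAV8-AGXT mice. The AAV8-GFP mice lay close together, and 3 of the 4 AAV8-AGXT mice were below all of them. Mouse 309 was the exception and lay between AAV8-GFP mice 303 and 311. The means were 60.3 ± 9.44 and 30.7 ± 18.02 CPM (SD, n = 4 each). The log2 fold change was -0.97 (SE 0.35), which was not called by edgeR (adjusted p = 0.119) and was called lower by DESeq2 (adjusted p = 0.0457). Without mouse 309 the mean of the 3 AAV8-AGXT mice was 22.6 ± 9.41 CPM (SD), and Klf6 was called lower (log2 fold change -1.42, SE 0.27, edgeR adjusted p = 0.0372). Klf4, a relative of Klf6 that is prominent in epithelia and endothelium, was much lower, at 6.40, 4.10, 3.09 and 3.35 CPM and at 5.25, 3.43, 2.98 and 1.51 CPM. Mouse 303 was above every AAV8-AGXT mouse, mice 316 and 319 were below every AAV8-GFP mouse, and the others overlapped. Its log2 fold change was -0.38 (SE 0.37, edgeR adjusted p = 0.541) with all mice and -0.43 (SE 0.42) without mouse 309.

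Ier3, which encodes a small stress-response protein and is a target of NF-kB, was at 9.06, 11.2, 10.2 and 5.91 CPM in AAV8-GFP mice and at 2.90, 6.13, 4.73 and 2.88 CPM in AAV8-AGXT mice. The groups overlapped by a single pair, AAV8-GFP mouse 315 and AAV8-AGXT mouse 309. Its means were 9.08 ± 2.29 and 4.16 ± 1.57 CPM (SD, n = 4 each), from 42 to 365 read pairs per mouse. The log2 fold change was -1.13 (SE 0.29), just outside the call with edgeR (adjusted p = 0.0566) and inside it with DESeq2 (adjusted p = 0.00408). Ier3 was called lower by edgeR without mouse 309 (log2 fold change -1.39, SE 0.28, adjusted p = 0.0414) and without AAV8-GFP mouse 315 (edgeR adjusted p = 0.0439). Ier2, a nuclear regulator that often rises together with Fos, differed from Ier3 in its pattern. It was at 85.6, 81.8, 47.5 and 84.9 CPM in AAV8-GFP mice and at 108, 289, 65.0 and 67.0 CPM in AAV8-AGXT mice, with mouse 309 far above and AAV8-GFP mouse 314 below the others. For Ier2 the log2 fold change was 0.82 (SE 0.45, edgeR adjusted p = 0.278), and 0.069 (SE 0.24, edgeR adjusted p = 0.880) without mouse 309.

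**Figure D3:**
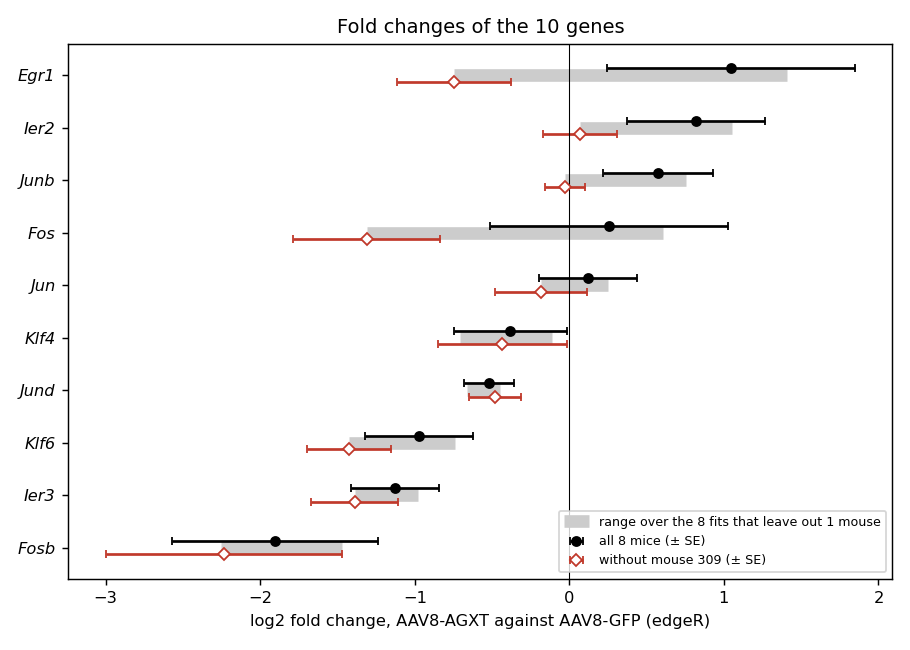
Log2 fold change of each of the 10 genes, AAV8-AGXT against AAV8-GFP, from edgeR with all 8 mice (black points) and without AAV8-AGXT mouse 309 (open red diamonds), with bars of 1 SE. Grey bands span the 8 fits that each leave out 1 mouse. Fos, Jun, Junb and Egr1 lie on opposite sides of 0 in the 2 fits shown. Jund, Klf4, Klf6, Ier3 and Fosb lie below 0 in both, and Ier2 lies above 0 in both.

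The genes differed in how much they varied among mice of a group. The biological coefficient of variation (edgeR's estimate of the spread between replicates beyond counting) was 74.5% for Egr1, 72.6% for Fos and 61.5% for Fosb, with a median of 19.3% over the genes tested. At least 98.9% of those genes had a smaller value than each of these 3. Ier2 (44.0%), Junb (35.9%), Klf4 (35.8%), Klf6 (34.9%), Jun (32.7%) and Ier3 (28.6%) were also above the median, and Jund (18.5%) was just under it. These values include mouse 309, and none without it are given here. Without it the SE of the log2 fold change fell from 0.80 to 0.37 for Egr1, from 0.77 to 0.47 for Fos and from 0.35 to 0.13 for Junb. For Fosb, Jund and Klf4 the SE rose. Mouse 309 was not the only mouse far from its group. AAV8-GFP mouse 314 had 0.13 times the median of the other 3 AAV8-GFP mice for Fosb, 0.294 times for Fos and 0.391 times for Jun, although 2.28% of all genes tested were under 0.5 times in this mouse. AAV8-AGXT mouse 319 was the lowest of all 8 mice for 5 of the 10 genes (Fos, Fosb, Egr1, Klf4 and Ier3), against 12.7% of all genes tested. Mouse 309 was the highest of the 8 for 5, against 15.6%. Over all genes tested, AAV8-AGXT mouse 308 was most often at an end, as the highest of the 8 for 23.8% and the lowest for 20.6%.

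Other genes of the same response showed which of them shared the pattern of mouse 309. Of 35 other immediate early genes, 10 exceeded 2 times the median of the other 3 AAV8-AGXT mice in mouse 309. The share over all genes tested was 4.51%. In mouse 309, 12 of the 35 were highest of all 8 mice, against 15.6% of all genes tested. Among them, named after their values were seen, were Phlda1, at 218 CPM in mouse 309 beside 15.6 to 63.9 CPM in the rest of its group, and Btg2, an antiproliferative gene, at 391 CPM beside 57.7 to 72.1 CPM. Zfp36, which encodes an mRNA-destabilising protein, was at 549 CPM in mouse 309 and at 161 to 277 CPM in the rest of its group. Dusp1, the phosphatase that switches off MAP kinases, was among the 10, at 2.09 times that median, but was not highest there, with 216 CPM in mouse 309 and 274 CPM in mouse 308. In the other direction, 1 of the 35 was under 0.5 times that median in mouse 309, Gadd45b at 0.274 times. Mouse 309 was the lowest of all 8 mice for 2 of the 35.

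**Figure D4:**
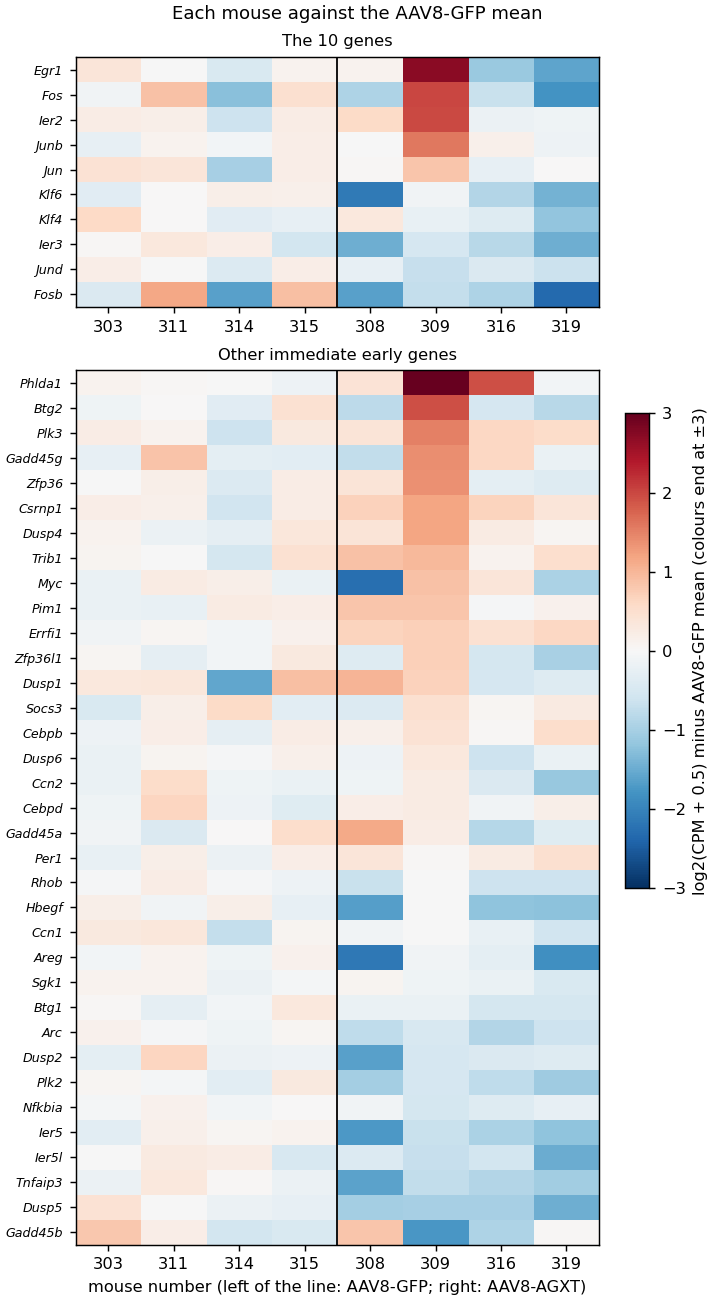
The 10 genes (top) and 35 other immediate early genes (bottom) in each mouse, as log2(CPM + 0.5) minus the AAV8-GFP mean, with colours ending at 3 in either direction. Red is higher and blue lower than the AAV8-GFP mean. Mouse 309 is red for Egr1, Fos, Ier2, Junb, Phlda1 and Btg2, while Fosb, Ier3, Ier5, Tnfaip3 and Dusp5 are blue in all 4 AAV8-AGXT mice.

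Of the 35 other immediate early genes, 6 were called with all mice, 1 higher and 5 lower in AAV8-AGXT. Over all genes tested, 2.45% were called higher and 1.9% lower. The median log2 fold change of the 35 was -0.13 beside 0.018 over all genes. Dusp5, a nuclear phosphatase for ERK, averaged 7.77 ± 1.87 CPM in AAV8-GFP mice and fell to 3.29 ± 0.561 CPM (SD, n = 4 each, edgeR log2 fold change -1.24, adjusted p = 0.0287). Ier5, a relative of Ier2, fell from 31.0 ± 4.37 to 14.2 ± 4.33 CPM (log2 fold change -1.12, edgeR adjusted p = 0.0341). Tnfaip3, the NF-kB feedback inhibitor A20, fell by 1.10 and the kinase gene Plk2 by 0.85 on the log2 scale (edgeR adjusted p = 0.0341 and 0.0349). For these 4 genes mouse 309 lay below every AAV8-GFP mouse. The other calls, named after their values were seen, were Arc, lower at 3 to 22 read pairs per mouse (log2 fold change -1.48, edgeR adjusted p = 0.0458), and Errfi1, the feedback inhibitor of EGF receptor signalling, higher in AAV8-AGXT (log2 fold change 0.61, edgeR adjusted p = 0.0375).

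Among the closer relatives, none of the 12 other AP-1 dimer partners was called, where 4.35% of all genes tested were. Of the 12, 10 had a negative log2 fold change, beside 7274 of the 15248 genes tested. An unadjusted p under 0.05 was reached by 3, all lower, against 12.6% of all genes lower at that level. The smallest p-values belonged to Batf2 (log2 fold change -0.99, edgeR adjusted p = 0.0724) and Fosl1 (-1.22, edgeR adjusted p = 0.0843). Of the 8 other EGR and NR4A factors and their NAB co-repressors, 7 were tested and 1 was called lower, against 1.9% of all genes tested. This was Egr3, at 0.291 ± 0.175 CPM against 0.983 ± 0.248 CPM in the controls (SD, n = 4 each, edgeR log2 fold change -1.78, adjusted p = 0.0465). It rested on 3 to 34 read pairs per mouse. Of the 15 other Kruppel-like factors, 11 were tested and 1 was called higher, against 2.45% of all genes tested. It was Klf1, the erythroid factor (log2 fold change 1.22, edgeR adjusted p = 0.0465). The erythroid markers, 5 genes, summed to between 86.4 and 145 CPM per control mouse and between 114 and 302 CPM per AAV8-AGXT mouse, none was called, and their part in Klf1 was not tested.

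Upstream of the 10 genes, 22 of 23 kinase genes and serum response factor partners were tested. Of these, 1 was called higher and 1 lower, against 2.45% and 1.9% of all genes tested. Mapk3, which encodes ERK1, fell by 0.45 on the log2 scale (edgeR adjusted p = 0.0493), from 72.9 ± 5.60 to 53.4 ± 6.35 CPM (SD, n = 4 each). Map3k5, which encodes the stress kinase ASK1, averaged 44.6 ± 6.99 CPM in AAV8-GFP mice and rose to 74.4 ± 15.7 CPM (SD, n = 4 each, edgeR log2 fold change 0.74, adjusted p = 0.0426). Of 12 textbook AP-1 target genes, 10 were tested and 8 of the 10 had a negative log2 fold change, with a median of -0.69 beside 0.018 over all genes. Of the 10, 2 were called lower, against 1.9% of all genes tested. The list was chosen with earlier results of these data known, and whether AP-1 had a part in these values was not tested. Timp1, the inhibitor of matrix metalloproteinases, fell from 8.40, 15.3, 17.2 and 9.04 CPM to 0.483, 3.55, 4.62 and 1.46 CPM (log2 fold change -2.29, edgeR adjusted p = 0.0444). Plau, the urokinase gene, fell to 2.58 ± 1.28 CPM from a control mean of 6.54 ± 1.61 CPM (SD, n = 4 each, edgeR log2 fold change -1.34, adjusted p = 0.0496). Without AAV8-GFP mouse 311, AAV8-GFP mouse 314 or AAV8-AGXT mouse 319, none of the 12 genes called in these 6 lists was called, when 2 to 15 genes were called in all. Without mouse 303 there were 2 calls in the lists, and without mouse 308 there were 3. Without mouse 309 there were 11, where 379 of all 15796 genes tested were called higher and 264 (1.67%) lower. Among the 11 were Atf3, Egr2, Rhob and Hbegf, all lower, which were not called with all mice. Mouse 309 was the highest AAV8-AGXT mouse for each of these genes, so leaving it out lowers their fold changes by construction. Errfi1, Mapk3, Map3k5, Timp1 and Plau were not called without mouse 309.

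Markers of the liver's cell types were measured beside these genes. All 7 hepatocyte markers had positive log2 fold changes and were abundant, summing to between 45856 and 55460.5 CPM per control mouse and between 55950.5 and 77683 CPM per AAV8-AGXT mouse, which fits the labelled tissue, and none was called. The summed monocyte and neutrophil markers lay between 218 and 431 CPM in the controls and between 55.5 and 257 CPM with AAV8-AGXT, with 169 CPM in mouse 309. All 6 that were tested had negative fold changes, none was called, and Ly6g was at 0 in 7 of the 8 mice. Macrophage and Kupffer cell markers summed to 365 to 560.3 and 231 to 919.8 CPM, with medians of 453 and 412 CPM. The upper end in AAV8-AGXT was mouse 319. T, NK and B cell markers summed to 14.5 to 21.7 and 7.46 to 15.7 CPM. Stellate cell markers summed to 359 to 562 and 216 to 454 CPM, with mouse 309 the highest AAV8-AGXT mouse. Of the 7, 5 had a negative log2 fold change and 2 a positive one (Reln and Lrat). One of the 7 was called lower, against 1.9% of all genes tested, and none was called without mouse 309. The call was Acta2, the smooth muscle actin of activated stellate cells (log2 fold change -0.99, edgeR adjusted p = 0.0427). Cholangiocyte markers summed to 26.6 to 73.2 and 14.8 to 38.0 CPM, and again mouse 309 was the highest of its group. All 6 had negative log2 fold changes, with a median of -1.24. Of these, 5 were lower at an unadjusted edgeR p under 0.05, against 12.6% of all genes lower at that level. Endothelial markers summed to 135 to 199.7 and 139 to 251 CPM. No marker of the macrophage, lymphocyte, cholangiocyte or endothelial lists was called. The part of these cell types in the values of Klf6, Ier3 and Fosb was not tested.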

How the data were processed

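Liver RNA of 8 mice was sequenced as stranded mRNA libraries, 1 per mouse. Per the labels and the paper's methods, the authors trimmed reads with Trimmomatic 0.35, mapped them to GRCm38 with HISAT2 and counted them on genes with HTSeq, and the deposited values are raw counts. HTSeq's tallies of read pairs on no gene were left out of library sizes. Symbols came from GENCODE M21, which matched 52489 of 52636 gene identifiers. From the counts, edgeR 4.0.16 (filterByExpr, TMM scaling, quasi-likelihood test, treatment as the only term) was fitted on all genes, with Benjamini-Hochberg adjustment over the 15248 tested and a threshold of 0.05, and was tested on simulated data. DESeq2 1.42.0, limma-voom (limma 3.58.1), other scalings and filters (none, or 10 counts in every mouse) and leaving out each mouse were alternatives. Exon lengths are unions over transcripts, and promoter windows are RefSeq's. From each further list the called genes are named, or the 4 with the smallest p, or, with none called, the 2 smallest; cell type markers only where called or near 0. The 10 genes and all lists were chosen with earlier results of these data known. Mice are separate animals, and harvest times and batches are not given in the sources used here.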

Additional observations from a re-analysis of the deposited data

Results flagged for a closer look

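The 10 genes and 14 other named genes (the 12 pathway genes called, Batf2 and Fosl1) were looked at in each group of 4 mice for a value whose gap to the nearest of the others exceeded Dixon's critical share of the group's range. For independent, normally distributed values chance alone gives about 1 in 20 groups, and 6 of 48 met this. The values were unlogged CPM, and several of these genes were high together in mouse 309, so that rate is not a matched background. Mouse 309 stood out from the other 3 AAV8-AGXT mice for 3 genes. Fos was at 108 CPM in it and at 7.22 to 16.3 CPM in the others. Junb was at 393 CPM beside 119 to 145 CPM. Egr1 was at 909.7 CPM beside 45.9 to 149.9 CPM. AAV8-GFP mouse 314 stood out for Ier2, at 47.5 CPM beside 81.8 to 85.6 CPM. Outside the 10 genes, Dusp5 in AAV8-AGXT mouse 319 was at 2.45 CPM beside 3.52 to 3.61 CPM, and Mapk3 in AAV8-GFP mouse 315 was at 64.5 CPM beside 75.1 to 76.2 CPM.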

How the results depend on the processing

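The count of the 10 genes called was 0 with edgeR and with limma-voom, 3 with DESeq2 (all lower), 2 with library totals as the only scaling (Jund, adjusted p = 0.0306, and Ier3, 0.0459, both lower), 1 with no filter on low counts (Ier3, 0.0316) and 0 to 2 with 1 mouse left out, 2 without mouse 309 and 1 without AAV8-GFP mouse 315. Library totals alone moved the median log2 fold change of all genes by -0.24. Over all genes the count went from 664 to 2102 with DESeq2, to 1001 with library totals (144 higher and 857 lower) and to 2 to 643 with 1 mouse left out, with 2 without mouse 311, 14 without 319, 15 without 314, 177 without 308, 193 without 303 and 411 without 316. Over the 6 lists of other pathway genes the count went from 12 to 25 with DESeq2 and to 0 to 11 with 1 mouse left out. The direction of Fos turned with limma-voom (-0.43) and ran from -1.31 to 0.60 with 1 mouse left out, below 0 without mouse 309 and without mouse 314 (-0.035). Jun turned with library totals (-0.11) and ran from -0.18 to 0.25, below 0 without 309 and 314, Junb from -0.028 to 0.76 and Egr1 from -0.74 to 1.41, below 0 without 309. The cause was not tested. Jund, Klf4, Klf6, Ier3 and Fosb kept a negative fold change in every alternative run. Ier2 kept a positive one, from 0.069 (without mouse 309) to 1.05 with 1 mouse left out. No paired analysis was possible because the groups share no replicate numbers, which are animal numbers.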
